A study of Mus musculus with 10 samples.

Results

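The 9 guide strands of the let-7 and miR-98 family, mmu-let-7a-5p, mmu-let-7b-5p, mmu-let-7c-5p, mmu-let-7d-5p, mmu-let-7e-5p, mmu-let-7f-5p, mmu-let-7g-5p, mmu-let-7i-5p and mmu-miR-98-5p (written below without the species prefix), were followed through the retinas of 5 mice. They were chosen by name from the 1061 mature miRNAs of the deposited table. The animals were wild type C57BL/6J mice, an inbred laboratory strain, taken at postnatal day 34. Every mouse had carried a lens of -20 D on 1 eye for 10 days from postnatal day 24 and had no lens on the other eye. Such a lens shifts the image behind the photoreceptors, and the growing eye lengthens towards it and becomes myopic. Mice 61, 64, 65, 66 and 68 each gave a left and a right library of small RNA from retina, so that there were 5 libraries per side. The labels give the side and the mouse but not which eye had the lens, and the comparison was therefore right against left within a mouse. In bulk tissue, fewer cells of a type and less RNA per cell cannot be told apart.

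let-7 miRNAs bind messenger RNAs through a shared seed at their 5' end and reduce the output of targets that include Lin28, Hmga2 and Ras genes. The precursors are kept from maturation by LIN28 in stem and progenitor cells, and the mature strands accumulate as cells leave the cell cycle and differentiate. In the retina let-7 is known for its part in the timing of progenitor competence and in Müller glia, where it restrains reprogramming to neurons.

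The mature sequences are shown because the members differ by so few bases that the reads of one can be close to those of another. They are written 5' to 3' from RefSeq (GRCm38.p6), where all 9 names matched, and capitals mark the seed at bases 2 to 8.
let-7a-5p: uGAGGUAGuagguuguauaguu
let-7b-5p: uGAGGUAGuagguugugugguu
let-7c-5p: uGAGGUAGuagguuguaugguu
let-7d-5p: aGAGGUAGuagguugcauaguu
let-7e-5p: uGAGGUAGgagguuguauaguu
let-7f-5p: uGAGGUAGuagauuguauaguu
let-7g-5p: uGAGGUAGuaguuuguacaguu
let-7i-5p: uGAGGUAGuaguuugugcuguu
miR-98-5p: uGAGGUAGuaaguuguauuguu
All 9 are 22 bases long and 14 of the 22 positions are the same in every member, the seed among them. Counted from 1 at the 5' end, with the base of let-7a-5p first, let-7c-5p differs by A19G, let-7e-5p by U9G and let-7f-5p by G12A. let-7b-5p carries A17G and A19G and is therefore 1 base from let-7c-5p. let-7d-5p carries U1A and U16C, let-7g-5p G12U and U18C, and miR-98-5p G11A and A19U. let-7i-5p is the farthest from let-7a-5p, with G12U, A17G, U18C and A19U. Of the 36 pairs of members, 4 differ by 1 base and 10 by 2 bases. How reads with a mismatch were assigned between such neighbours is not given in the sources used here and was not tested.

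The seed GAGGUAG, read only at bases 2 to 8, stands in 11 of 1679 mature miRNA names of the RefSeq table (0.655%), the 9 members and 2 others. These are let-7k and miR-1961, which are shorter than the members. let-7j, named as a relative, is shown for comparison because its seed differs from that of let-7i-5p by G8U.
let-7k: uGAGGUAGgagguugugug
miR-1961: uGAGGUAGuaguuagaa
let-7j: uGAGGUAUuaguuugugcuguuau
All 3 were scarce in the retina. let-7j had a mean of 73.3 ± 4.45 normalised reads (SD, n = 10 libraries), let-7k of 1.84 ± 0.983 and miR-1961 of 1.98 ± 1.42. let-7k was listed at 0 in 1 library and miR-1961 in 2. let-7j stayed between 67.0 and 81.1 normalised reads.

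The members come from 12 hairpins on 7 chromosomes of GRCm38, and let-7a, let-7c and let-7f have 2 copies each. let-7a-5p is listed at chr9:41536732-41536753, the let-7a-2 copy, in introns of the processed transcript 3110039I08Rik and the lincRNA Gm49317. Its other copy, let-7a-1 (chr13:48538239-48538260), lies in an exon of the lincRNA 6720427I07Rik on the minus strand. Exons of the same lincRNA hold let-7f-1 (chr13:48537889-48537910) and let-7d (chr13:48536078-48536099), with 261 bases between the let-7a-1 and let-7f-1 hairpins and 1714 between let-7f-1 and let-7d. let-7c-2 (chr15:85706616-85706637) and let-7b (chr15:85707325-85707346) lie in exonic sequence of the processed transcript Lncppara, with 621 bases between their hairpins. let-7c-1 (chr16:77599672-77599693) lies in an intron of Mir99ahg. let-7e (chr17:17830366-17830387) lies in an intron of Spaca6 and let-7g (chr9:106178846-106178867) in an intron of Wdr82. let-7i (chr10:122985698-122985719, minus strand) lies in an exon of the transcribed pseudogene D630033A02Rik. let-7f-2 (chrX:151912353-151912374) and miR-98 (chrX:151913229-151913250) both lie in intronic sequence of Huwe1, with 785 bases between their hairpins. The reads of 2 copies with the same mature sequence cannot be told apart, so each member has 1 value.

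The deposited values are normalised read counts, called normalised reads here. Every library summed to between 17312269 and 17312436, and the values sorted from high to low were the same in all libraries at 342 of 1061 ranks. The lowest 162 ranks, at 0 in every library, are among these by definition. At the top, let-7a-5p was at 413985 wherever it held rank 4 and at 363774 wherever it held rank 5. A value therefore mainly gives the rank of a miRNA within its library. The read depth is unknown, and between 162 and 239 miRNAs were listed at 0 in a library. Of the photoreceptor markers, miR-182-5p held rank 1 and miR-183-5p rank 3 in every library, and miR-96-5p lay between 20983 and 49233 normalised reads. The right library of mouse 65 stood apart in the sum of the lens and surface epithelium markers. All 3 of them were in the table and above 0 in every library. Their sum was 22622 in that library, between 2119 and 2338 in the other right libraries and between 1217 and 2301 in the left ones. The excess lay in miR-184-3p alone, at 22384. miR-205-5p at 25.6 and miR-203-3p at 213 were within the range of the other right libraries. The left library of mouse 68 stood apart in the skeletal muscle markers. Their sum was 1629 there, between 273 and 332 in the other left libraries and between 248 and 369 in the right ones. Of these 3 markers, miR-133a-3p was above 0 in every library, while miR-1a-3p was listed at 0 in 1 library and miR-206-3p in 2. Fits and correlations that rest on mouse 65 or mouse 68 are therefore also given without that mouse.

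The guide strands were very unequal in level. let-7a-5p was the highest, with a mean of 403943 ± 21171 normalised reads (SD, n = 10 libraries), and held rank 4 or 5 of a library. let-7g-5p followed with 119506 ± 1973 and let-7f-5p with 86124 ± 5336. A middle group was formed by let-7d-5p with 23674 ± 4686, let-7c-5p with 21446 ± 5883 and let-7i-5p with 12098 ± 2305. let-7e-5p had 1950.3 ± 468, let-7b-5p 724 ± 184 and miR-98-5p 572 ± 73.8 normalised reads, at ranks from 77 to 155. All members have the same length, but adapter ligation favours some ends over others, so these levels are not on 1 molar scale.

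The order of the members was nearly the same in every retina. Of the 8 pairs of neighbours in this order, 7 kept it in 10 of 10 libraries. The exception was let-7d-5p above let-7c-5p, which held in 8 of 10 libraries, with a ratio of let-7d-5p to let-7c-5p from 0.800 to 1.38. let-7b-5p stood above miR-98-5p in all libraries by a ratio of only 1.04 to 1.69, and their ranges overlapped. Members 1 base apart differed in level. let-7a-5p was 4.69 times as high as let-7f-5p, 18.8 times as high as let-7c-5p and 207 times as high as let-7e-5p by the ratio of means, and let-7b-5p had 0.0337 times the level of let-7c-5p. The 9 members summed to between 607271 and 706229 normalised reads, or 3.51% to 4.08% of a library, and let-7a-5p alone made up 57.0% to 63.5% of that sum. Because a value mainly gives a rank, these ratios and shares describe the normalised values and need not be those of the sequenced reads.

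**Figure D1:**
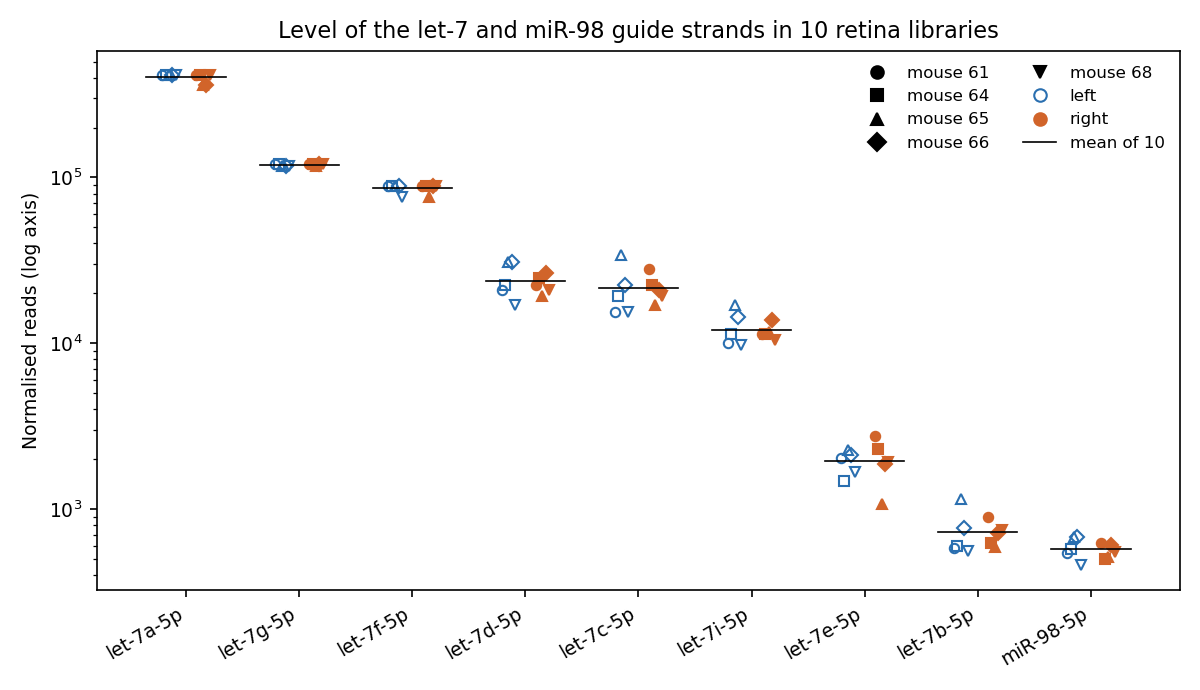
Normalised reads (log axis) of each guide strand in the left (open blue) and right (filled orange) retina of 5 mice, with a marker shape for each mouse and a black line at the mean of 10 libraries. let-7a-5p lay between 363774 and 413985 in all libraries, and miR-98-5p between 457 and 678.

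The resolution of the values differed between members. let-7a-5p, let-7f-5p and let-7g-5p took only 2 distinct values each over the 10 libraries. From the rank of let-7a-5p, the median step was 0.19 on the log2 scale to the next lower rank and 0.74 to the next higher. The corresponding steps were 0.023 and 0.025 for let-7b-5p, which took 10 distinct values. A change of let-7a-5p smaller than the step between ranks would therefore not be seen. let-7g-5p had a finer step of 0.046 to the next lower rank, and this was the whole distance between its 2 values. Over the 10 libraries the coefficient of variation of normalised reads was 5.24% for let-7a-5p, 6.20% for let-7f-5p and 1.65% for let-7g-5p, against 12.9% for miR-98-5p and between 19.1% and 27.4% for the other 5.

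The study set an eye with a lens against the other eye of the same animal, and with the lens side not given here each guide was compared between right and left retina. No guide strand passed the test, and for every one of them the left and right values overlapped. let-7a-5p, the most abundant member, was at 413985 normalised reads in all 5 left retinas. In right retina it was at 413985 in mice 61, 64 and 68 and at 363774 in mice 65 and 66, where it stood 1 rank lower. Its right-minus-left value was the nearest to the threshold in the family (log2 fold change -0.075, SE 0.036, 95% interval -0.16 to 0.013, adjusted p by limma 0.958). let-7g-5p was at 121034 in both retinas of mice 61 and 64 and in the right retina of mice 66 and 68, and at 117214 in the other 4 libraries (log2 fold change 0.019, SE 0.014, 95% interval -0.016 to 0.053, adjusted p by limma 0.958). let-7f-5p was at 88655 in 8 libraries and at 76000 in the left retina of mouse 68 and the right retina of mouse 65, so that the 2 sides had the same mean and a log2 fold change of 0 with a 95% interval of -0.14 to 0.14.

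The members in the middle of the order varied more. For let-7c-5p the left retina of mice 61, 64, 65, 66 and 68 had 15329.8, 19388, 34261, 22384 and 15329.8 normalised reads and the right retina 27971, 22384, 17043, 20982 and 19388. It was higher on the right in mice 61, 64 and 68 and lower in mice 65 and 66, and its highest value was in the left retina of mouse 65. It had a left mean of 21338 ± 7812 and a right mean of 21554 ± 4100.0 normalised reads (SD, n = 5 each), with overlapping sides (log2 fold change 0.063, SE 0.25, 95% interval -0.53 to 0.65, adjusted p by limma 0.994). For let-7d-5p the left retina of mice 61, 64, 65, 66 and 68 had 20982, 22384, 30983, 30983 and 17043 normalised reads and the right retina 22384, 24916, 19388, 26689.5 and 20982. The same 3 mice were higher on the right, and the left retinas of mice 65 and 66 shared the highest value (log2 fold change -0.069, SE 0.14, 95% interval -0.40 to 0.27, adjusted p by limma 0.978). For let-7i-5p the left retina of mice 61, 64, 65, 66 and 68 had 9982, 11298, 17043, 14434 and 9745 normalised reads and the right retina 11298, 11298, 11669.7, 13805 and 10406. It was equal on both sides in mouse 64, and again highest in the left retina of mouse 65 (log2 fold change -0.067, SE 0.11, 95% interval -0.32 to 0.19, adjusted p by limma 0.971).

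The 3 least abundant members had the finest steps between ranks. For let-7e-5p the left retina of mice 61, 64, 65, 66 and 68 had 2039, 1483, 2262, 2117 and 1675 normalised reads and the right retina 2748, 2308, 1074, 1865 and 1931. The right retina of mouse 65 was the lowest of all libraries and the right retina of mouse 61 the highest (log2 fold change 0.0036, SE 0.25, 95% interval -0.59 to 0.59, adjusted p by limma 1). For let-7b-5p the left retina of mice 61, 64, 65, 66 and 68 had 581, 599, 1148, 769.6 and 559.8 normalised reads and the right retina 899.9, 619, 593, 719 and 748. The highest value stood in the left retina of mouse 65, as for its neighbour let-7c-5p (log2 fold change 0.0091, SE 0.23, 95% interval -0.53 to 0.55, adjusted p by limma 1). For miR-98-5p the left retina of mice 61, 64, 65, 66 and 68 had 542, 575, 678, 678 and 457 normalised reads and the right retina 619, 498, 515, 606 and 552. Its left retinas of mice 65 and 66 shared the highest value (log2 fold change -0.060, SE 0.12, 95% interval -0.35 to 0.23, adjusted p by limma 0.978).

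Over all 484 miRNAs with a mean of at least 10, the limma fit with mouse as a block called 0 (0%) at an adjusted p under 0.05, and 12 (2.48%) had an unadjusted p under 0.05. Of the 9 guides, 0 passed either level. None of the 9 had 1 direction in all 5 mice, as 18 of 484 (3.72%) did, and none had sides without overlap, as 4 of 484 (0.826%) did. In the fit 4 guides lay above 0, 4 below and let-7f-5p at 0, the median being 0, the lowest -0.075 and the highest 0.063, beside a median of -0.011 for all 484. The 95% intervals reached 0.035 on either side of the estimate for let-7g-5p and 0.59 for let-7c-5p, with a median of 0.29 over the 9 guides and 0.34 over the 484 miRNAs. let-7g-5p took only 2 values, 0.046 apart on the log2 scale, so its narrow interval describes tied values and not a finer measurement. Because the lens side is not known here, an effect of the lens itself was not tested by this contrast.

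**Figure D2:**
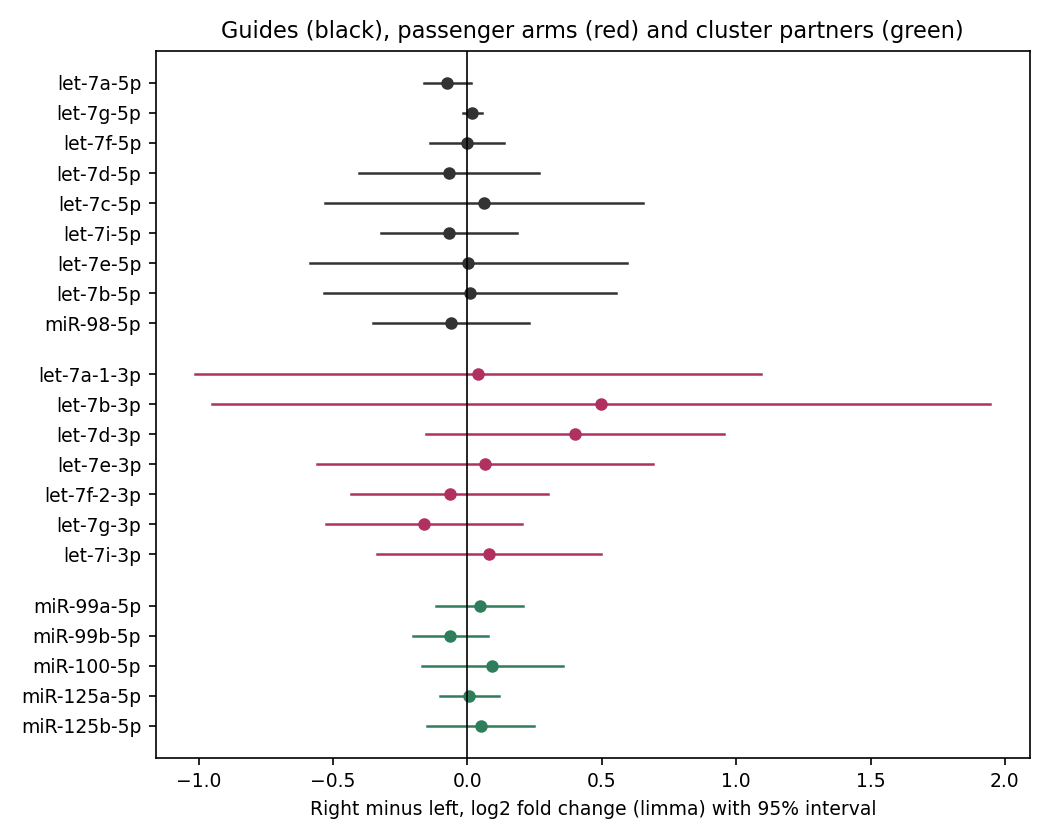
Right-minus-left log2 fold change with its 95% interval from limma for the 9 guides (black), 7 distinct passenger arms with a mean of at least 10 (red) and 5 cluster partners (green). All intervals included 0, and the narrowest among the guides was that of let-7g-5p, whose values differed by 1 rank.

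Within a mouse, however, the guides lay mostly on the same side of 0. In mouse 65 the right retina was lower than the left for 8 of 9 guides and equal for let-7g-5p, where 52.5% of all 484 miRNAs were lower and 42.4% higher. The median right-minus-left difference of the guides in that mouse was -0.55 on the log2 scale, beside -0.032 for all 484, and reached -1.07 for let-7e-5p, -1.01 for let-7c-5p and -0.95 for let-7b-5p. In mouse 66, 7 of 9 were lower on the right and 1 higher (all miRNAs: 49.8% lower, 44.6% higher), with a median of -0.097. In mouse 61, 6 of 9 were higher and none lower (all miRNAs: 48.1% higher, 47.1% lower), with a median of 0.18 and the largest difference, 0.87, for let-7c-5p. In mouse 68, 8 of 9 were higher and none lower (all miRNAs: 47.3% higher, 45.0% lower), with a median of 0.22. Mouse 64 was mixed, with 4 higher, 1 lower and 4 equal (all miRNAs: 44.8% higher, 47.3% lower) and a median of 0. These counts describe single pairs of libraries and were not tested, and members with close sequences are not independent.

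**Figure D3:**
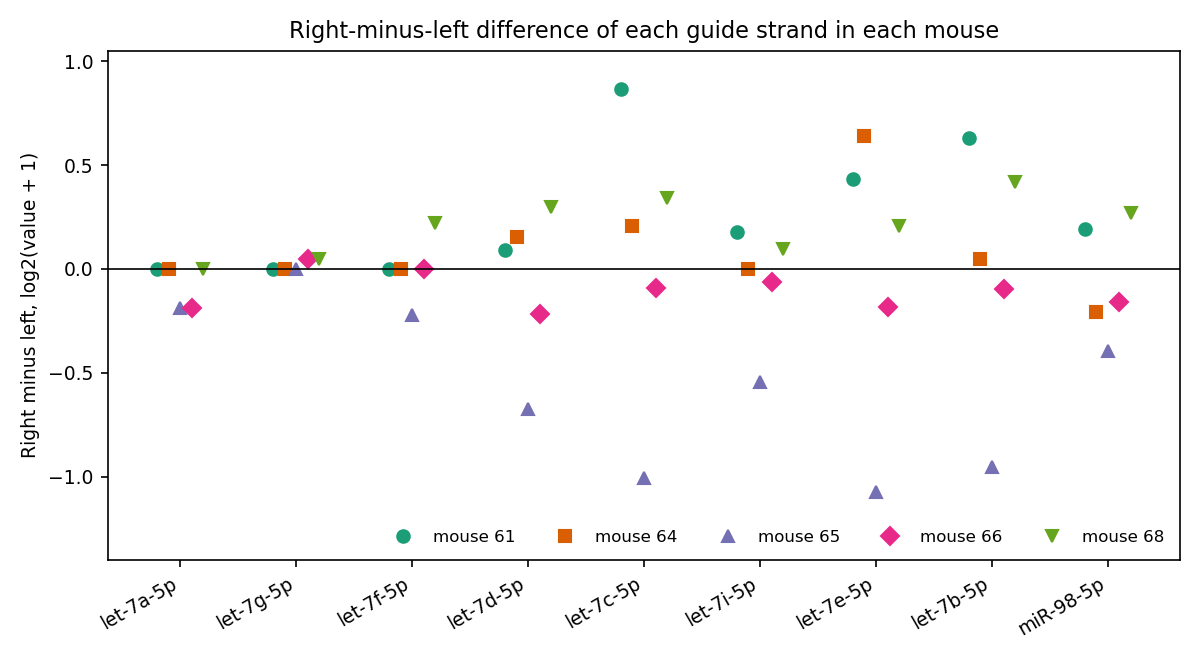
Right minus left of log2(value + 1) for each guide strand, ordered by level, with 1 marker per mouse and a line at 0. The purple triangles of mouse 65 lay at or below 0 for all 9 guides, down to -1.07 for let-7e-5p, and the green triangles of mouse 68 at or above 0, up to 0.42 for let-7b-5p.

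Other features of the same libraries are given beside these differences. The mean of the centred log2 values of the guides was highest in the left library of mouse 65, at 0.32. It was -0.24 in the right library of that mouse. This right library held the excess of miR-184-3p given above, at 22384 normalised reads against 988 on the left. The part of this excess in the let-7 values was not tested. The left library of mouse 68, where the mean of the centred log2 values of the guides was at its lowest (-0.24, as in the right library of mouse 65), held the excess of muscle markers. miR-133a-3p was at 1596 normalised reads there and at 241 in the right library of that mouse, and its part in the let-7 values was not tested. Libraries also differed in a trend of the log2 values with the GC content of the mature sequence. Right minus left, this trend was 0.19 per 10 points of GC in mouse 61, 0.12 in mouse 64, -0.17 in mouse 65, 0.057 in mouse 66 and 0.039 in mouse 68. Over the same mice the median differences of the guides were 0.18, 0, -0.55, -0.097 and 0.22. The part of this trend in the guides was not tested. The guides have a GC content of 31.8% to 45.5%, below the median of 47.8% over the 424 tested miRNAs with a sequence. With the linear trend removed from each library, a step chosen after seeing the data, the median difference of the guides was 0.35 in mouse 61, 0.17 in mouse 64, -0.70 in mouse 65, -0.064 in mouse 66 and 0.30 in mouse 68, and all 9 guides were lower on the right in mouse 65.

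Without mouse 65, 0 guides and 0 of 483 miRNAs passed by limma, but 63 of the 483, none of them a guide, had an unadjusted p under 0.05, against 12 of 484 with it. let-7d-5p, let-7i-5p and miR-98-5p then turned from below to above 0, at 0.083, 0.052 and 0.024 on the log2 scale. The values of let-7b-5p, let-7c-5p and let-7e-5p were then 0.25, 0.33 and 0.27, and the median of the 9 guides was 0.056. Without mouse 68, 0 guides and 0 of 486 miRNAs passed by limma, 7 of the 486 and no guide had an unadjusted p under 0.05, and the median of the guides was -0.093. let-7b-5p, let-7c-5p and let-7e-5p were then below 0, at -0.093, -0.0064 and -0.047.

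The mice were also compared with each other, taking both retinas of a mouse as 2 measurements of it. No guide passed this test. By limma's F test with side as a term, 8 of 484 miRNAs (1.65%) were at an adjusted p under 0.05 and 68 (14.0%) at an unadjusted p under 0.05, and 0 of 9 guides passed either level. let-7i-5p came nearest (unadjusted p by limma 0.0659, adjusted 0.361). Its mean of both retinas in mice 61, 64, 65, 66 and 68 was 10639.7, 11298, 14356, 14119 and 10076 normalised reads, highest in mice 65 and 66. Without mouse 65, 2 guides had an unadjusted p under 0.05 by limma, let-7i-5p (unadjusted 0.00301, adjusted 0.0976) and let-7d-5p (unadjusted 0.0126, adjusted 0.165), beside 93 of 483 miRNAs (19.3%), and 0 guides passed after adjustment. Without mouse 68, 0 guides and 54 of 486 miRNAs (11.1%) were at an unadjusted p under 0.05. let-7c-5p and let-7e-5p had F values of 0.410 and 0.646, with adjusted p values by limma of 0.934 and 0.882. Anything shared by both libraries of a mouse cannot be told apart from the mouse itself.

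The miRNAs made from the same primary transcripts as let-7 members were measured in the same libraries. miR-99a and miR-125b accompany let-7c-1, miR-99b and miR-125a accompany let-7e, and miR-100 and miR-125b accompany let-7a-2. In GRCm38 there are 656 bases between the miR-99a and let-7c-1 hairpins and 367 between let-7e and miR-125a. The let-7a-2 cluster is wider, with 5211 bases between miR-100 and let-7a-2 and 45114 between let-7a-2 and miR-125b-1. miR-125b-5p has 1 value, which cannot be assigned to either of its clusters. miR-99a-5p differed between mice (adjusted p by limma 0.0338), with means of both retinas of 2922, 2664, 1777, 1753 and 2824 normalised reads in mice 61, 64, 65, 66 and 68. Mice 65 and 66 were the low ones, and the values of the 2 eyes were close, from -0.10 to 0.17 on the log2 scale right minus left. This call was lost when any 1 mouse was left out, with adjusted p values by limma from 0.0727 to 0.179, and at 0.0562 without a mean-variance trend. miR-99b-5p had means of 20886, 20185, 14434, 16186 and 23650.1 in the same order of mice, low again in mice 65 and 66, but its adjusted p by limma of 0.0517 did not pass. miR-100-5p had means of 3022, 2959, 1990.0, 1636 and 3029 (adjusted p by limma 0.128). Of the 5 partners, 1 passed the F test and 4 had an unadjusted p under 0.05, where 1.65% and 14.0% of all 484 miRNAs did.

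In mouse 65 most partners had nearly the same value in both eyes. miR-99b-5p, miR-100-5p and miR-125a-5p had the same value in both retinas of that mouse, miR-99a-5p differed by 0.038 and miR-125b-5p by -0.27 on the log2 scale, beside -1.01 for let-7c-5p and -1.07 for let-7e-5p. In mouse 68, the partners and the guides were all at or above 0 on the right, with a median of 0.15 for the 5 partners. Right minus left over the 5 mice, 0 of 5 partners passed, 4 lay above 0 and 1 below, and the median was 0.047. let-7c-5p reads cannot be assigned to the let-7c-1 copy beside miR-99a or to the let-7c-2 copy beside let-7b, and whether guides and partners differ in their spread was not tested.

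**Figure D4:**
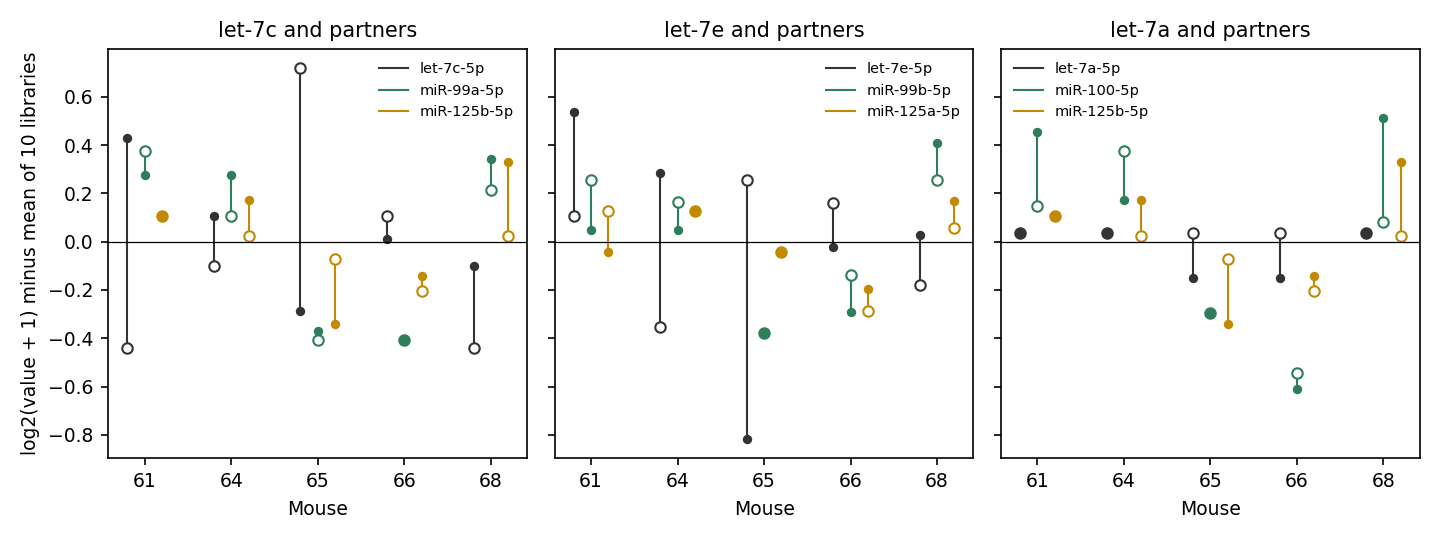
log2(value + 1) minus the mean of 10 libraries for let-7c-5p, let-7e-5p and let-7a-5p (black) and the miRNAs of their clusters (green and yellow), by mouse. Open points are left and filled points right retina, joined within a mouse. In mouse 65 the right-minus-left difference was -1.01 for let-7c-5p and 0.038 for miR-99a-5p.

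The opposite arms of the hairpins, which are mostly degraded as passengers, were measured beside the guides. All 12 passenger arms were in the table and 8 had a mean of at least 10. For the 6 hairpins with a single copy, the guide exceeded the passenger in 10 of 10 libraries, so the label of guide strand held for them. The mean difference of 5p minus 3p arm was 12.28 on the log2(value + 1) scale for let-7g, 8.34 for let-7i, 7.25 for miR-98, 5.17 for let-7b, 5.01 for let-7e and 4.72 for let-7d. The value of miR-98 rests on a scarce passenger, miR-98-3p, with a mean of 4.47 normalised reads and listed at 0 in 1 library, and it was 7.57 with a pseudocount of 0.5 and 5.39 with one of 10. let-7d-3p was the most abundant passenger, with 919.9 ± 282 normalised reads (SD, n = 10 libraries), above the guides let-7b-5p and miR-98-5p in mean. It had a left mean of 792 ± 214 and a right mean of 1047 ± 304 normalised reads (SD, n = 5 each) and was higher on the right in 4 of 5 mice, but did not pass (log2 fold change 0.40, SE 0.23, 95% interval -0.16 to 0.95, adjusted p by limma 0.958). let-7a-1-3p and let-7c-2-3p have the same sequence and had the same value in every library, which cannot be assigned to either hairpin.
let-7a-1-3p: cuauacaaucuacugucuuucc
let-7c-2-3p: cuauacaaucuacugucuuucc
They are counted once below.

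The medians of passengers and guides had opposite signs in mice 65, 66 and 68. In mouse 65, 5 of the 7 distinct passengers with a mean of at least 10 were higher on the right, 1 was lower and 1 equal (all miRNAs: 42.4% higher, 52.5% lower). Their median was 0.60 on the log2 scale, where the guides had -0.55. In that mouse let-7a-1-3p went from 14.1 (left) to 37.2 (right) normalised reads, and let-7b-3p from 18.9 to 47.0. In mouse 68 all 7 were lower on the right (all miRNAs: 47.3% higher, 45.0% lower), with a median of -0.53, where the guides had 0.22. This pair holds the left library with the excess of muscle markers, as that of mouse 65 holds the right library with the excess of miR-184-3p. The part of either was not tested. The passenger medians were 0.014 in mouse 61, 0 in mouse 64 and 0.17 in mouse 66. In mouse 66 the passengers were split, with 4 higher and 3 lower on the right (all miRNAs: 44.6% higher, 49.8% lower). The guide-to-passenger difference was lowest in the right retina of mouse 65 for let-7b, let-7d and let-7e, and lowest in the left retina of mouse 68 for let-7i and miR-98. let-7g went the other way, with its lowest difference, 11.91, in the left retina of mouse 65, where its right-minus-left value was 0.47. For let-7d it was 3.71 in the right retina of mouse 65, 5.26 in the left, and at least 3.96 in each of the other libraries. Right minus left over 5 mice, 0 of 7 passengers passed by limma, 5 lay above 0 and 2 below, and the median was 0.066. Apart from let-7d-3p and let-7f-2-3p, these passengers had means under 100 normalised reads, and the opposite signs were not tested.

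The values of several guides varied together over the 10 libraries. As a description, with both eyes of a mouse and the normalisation shared between points, Pearson's r of the log2 values was 0.92 between let-7b-5p and let-7c-5p, the neighbours on chromosome 15, with Spearman's rho of 0.92. It was 0.89 between let-7d-5p and let-7i-5p, which lie on different chromosomes, and 0.84 between let-7d-5p and miR-98-5p. Among let-7b-5p, let-7c-5p, let-7d-5p, let-7e-5p, let-7i-5p and miR-98-5p, all 15 pairs had r above 0, the lowest 0.20, the median 0.74 and the highest 0.92. Without mouse 65 these were 0.14, 0.61 and 0.93, and without mouse 68 they were 0.17, 0.67 and 0.93. This group was formed after seeing that the other 3 members took only 2 values each. let-7f-5p and let-7a-5p each have a copy in the cluster of let-7d and another copy elsewhere. let-7f-5p had r of 0.67 with let-7d-5p, 0.67 without mouse 65 and 0.54 without mouse 68. let-7a-5p had r of 0.061 with let-7d-5p, -0.34 without mouse 65 and 0.26 without mouse 68. let-7g-5p had r below 0 with let-7b-5p, let-7c-5p, let-7d-5p, let-7i-5p and miR-98-5p, but without mouse 65 its r was above 0 with let-7b-5p (0.12), let-7c-5p (0.24) and miR-98-5p (0.046).

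**Figure D5:**
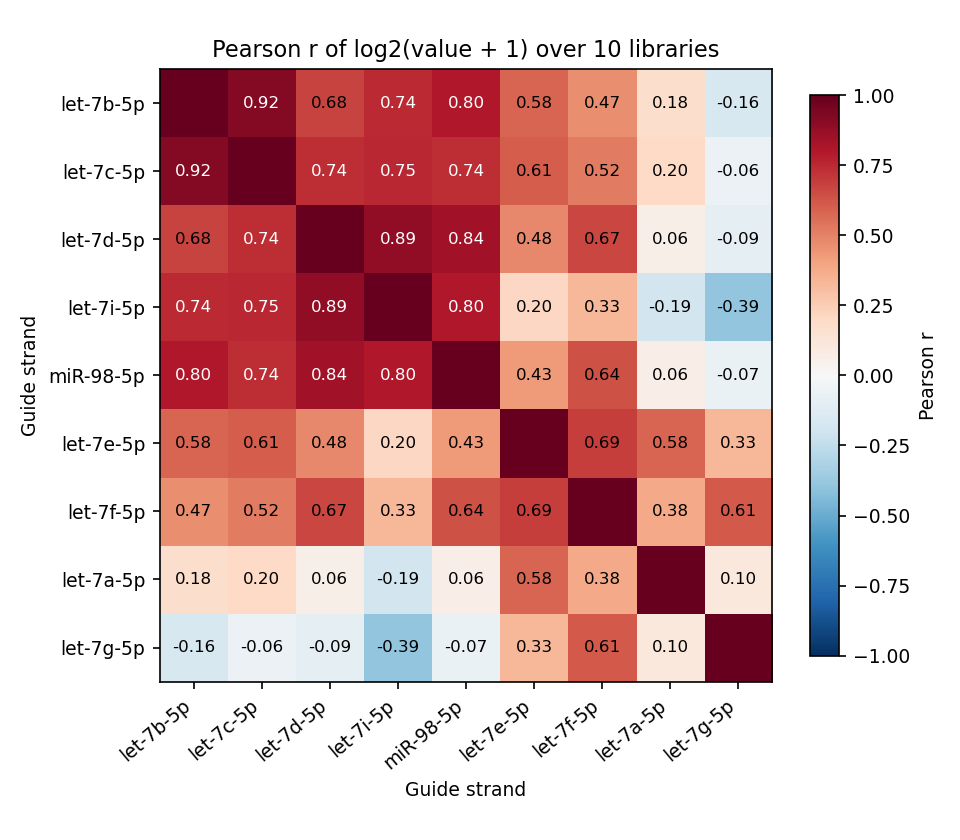
Pearson's r of log2(value + 1) over 10 libraries for each pair of guide strands, with red above 0 and blue below. The block of let-7b-5p, let-7c-5p, let-7d-5p, let-7i-5p and miR-98-5p had r from 0.68 to 0.92, with a lowest r of 0.47 without mouse 65. let-7g-5p had r below 0 with each of these 5, a sign that turned for 3 of them without mouse 65.

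The miRNAs outside the family whose pattern was most like that of the guides were found by Pearson's r with the mean of the 9 centred log2 values over the 10 libraries. The 5 highest were miR-672-5p (0.94), miR-135b-3p (0.94), miR-434-5p (0.91), miR-409-3p (0.87) and miR-1198-5p (0.86). For miR-672-5p the left retina of mice 61, 64, 65, 66 and 68 had 165, 239, 373, 269.7 and 155 normalised reads and the right retina 296, 228, 175, 226 and 235. Like let-7c-5p, it was highest in the left retina of mouse 65 and higher on the right in mice 61 and 68. The 5 lowest were miR-9-3p (-0.90), miR-376b-3p (-0.82), miR-136-5p (-0.82), miR-32-5p (-0.80) and miR-153-3p (-0.80). miR-9-3p, an arm of a neuronal hairpin, had its lowest value, 691, where let-7c-5p had its highest. Without mouse 65 the r was 0.89 for miR-672-5p and -0.80 for miR-9-3p, and without mouse 68 it was 0.93 and -0.91. Others rested more on mouse 65. Without it the r was 0.73 for miR-409-3p, -0.71 for miR-136-5p, -0.61 for miR-376b-3p and -0.55 for miR-32-5p. The 5 highest then lay between 0.73 and 0.89 and the 5 lowest between -0.81 and -0.55. Without mouse 68 these ranges were 0.87 to 0.95 and -0.92 to -0.78. The GC content of the 5 highest was 47.8% to 54.5% and that of the 5 lowest 31.8% to 38.1%, and the part of GC content in these patterns was not tested.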

How the data were processed

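Small RNA libraries of 10 retinas were analysed, 5 left and 5 right, grouped by side and mouse number from the labels. The unit of the deposited values is a signal derived from read counts, normalised by the authors to nearly equal library totals. The submitters' processing notes name Partek and Bowtie, and GRCm38 and mm10 as builds. No source used here gives versions, trimming or the miRNA annotation. Per the labels' protocols, libraries were made with the TruSeq Small RNA kit from small RNA of a column kit. The depth is unknown, so no counting intervals are given.

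The analysis used log2(value + 1), a scale on which changes of scarce miRNAs look smaller. The 484 miRNAs with a mean of at least 10 entered a limma fit (version 3.58.1, R 4.3.3) of side and mouse, with its trend option on. Two-sided p-values were adjusted by Benjamini-Hochberg, and calls needed an adjusted p under 0.05. The fit was also run on simulated data with independent normal noise. Apart from the changes put in, these had no pairing by mouse and no tied values, unlike the deposited data. Pairing comes from the animal, and the deviations of both eyes from their side's mean correlated across miRNAs by 0.0893 to 0.382, against -0.338 to 0.355 (median -0.0824) for left and right libraries of different mice. The table held 0 columns of other samples. Positions are from the table and RefSeq, and hosts from GENCODE on GRCm38. GC content was known for 424 (87.6%) of the tested miRNAs.

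The members and lists were chosen with earlier results of these data known. The text names the 9 guides, their 12 passenger arms, 5 cluster partners and relatives by seed or name. It also names the 5 miRNAs with the highest and the 5 with the lowest correlation with the mean of the guides. miR-184-3p and the markers were named in a list of other cell types. miR-202, another relative, is not analysed here. Alternatives were 2 other pseudocounts, 2 other filters, no block, mouse as the only term, median-ratio scaling, no trend, GC removal and leaving out each mouse.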

Additional observations from a re-analysis of the deposited data

Results flagged for a closer look

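Of 101 groups of 5 libraries checked, the markers of other cell types included, 10 had a library far from the others by Dixon's gap ratio, where chance puts about 1 in 20. let-7f-5p and let-7g-5p took only 2 values, so that a single library on the other value is enough. The rate of 1 in 20 does not hold for such tied values. Among left retinas, let-7f-5p was lowest in mouse 68, with 76000 against 88655 normalised reads in the rest. Among right retinas it was lowest in mouse 65, again with 76000 against 88655. let-7g-5p was lowest among right retinas in mouse 65, with 117214 against 121034. The passenger let-7e-3p was lowest among right retinas in mouse 68, with 36.6 against 62.7 to 71.8.

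The other 6 were markers. Among right retinas, mouse 65 was highest in miR-184-3p, a miRNA of lens and cornea, with 22384 against 1898 to 2117, and in the neuronal miR-124-3p, with 88655 against 81299.8. For miR-124-3p this was rank 12 against rank 13, a value that the other right retinas shared, so a single library on another value is enough here too. Mouse 64 was highest among right retinas in the epithelial miR-205-5p, with 49.4 against 21.2 to 26.4. Among left retinas, mouse 68 was highest in the muscle miRNAs miR-133a-3p, with 1596 against 273 to 331, and miR-1a-3p, with 26.6 against 0 to 4.10. It was lowest in the epithelial miR-203-3p, with 194 against 219 to 228.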

How the results depend on the processing

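In all 13 other fits 0 guides were called right against left by limma, with adjusted p values down to 0.377. Of 117 such values 12 changed sign. Leaving out each mouse gave -0.15 to 0.25 for let-7b-5p, -0.14 to 0.33 for let-7c-5p, -0.16 to 0.083 for let-7d-5p, -0.16 to 0.27 for let-7e-5p, -0.13 to 0.052 for let-7i-5p and -0.14 to 0.024 for miR-98-5p. With the GC trend removed miR-98-5p turned to 0.030. With no replicate block, and so without the pairing by mouse, 0 miRNAs and 0 guides were called by limma, 13 miRNAs had an unadjusted p under 0.05, and the median of the guides was 0, as with the block. Between mice, 0 guides passed in any fit. The number of miRNAs called there was 5 without a mean-variance trend, 16 with mouse as the only term and 3 to 7 when a mouse was left out, against 8, and the cause was not tested. The lowest of these was without mouse 68. Guides at an unadjusted p under 0.05 in that test numbered 1 without a filter (9.14% of all miRNAs), with median-ratio scaling (14.7%) or with mouse as the only term (16.5%), and 0 to 2 when a mouse was left out (10.7% to 19.3%). With a pseudocount of 10 the median difference between arms was 5.10, against 6.21, and miR-98 and let-7g moved to 5.39 and 11.82. The unknown depth and the coarse top ranks limit all of these values.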
